A study of Mus musculus with 15 samples.

Results

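The mouse auditory nerve at postnatal day (P) 7 was compared with the nerve at P3, over all genes of the deposited table. The comparison used 6 of the 15 bulk RNA sequencing libraries of the series, picked by their labels: P7 replicates 4, 5 and 6 and P3 replicates 1, 2 and 3. Each library held total RNA of the nerve dissected from both cochleae of 1 mouse, so 3 mice stood for each age and every value is an average over all cell types of the dissected tissue. Neither age was treated. Strain, genotype, sex and litter are not given in the sources used here. The other 9 libraries (P14, P21 and adult, 3 each) entered only the estimate of spread and the levels given for later ages.

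The auditory nerve carries signals from the sensory hair cells of the cochlea to the brainstem along the axons of spiral ganglion neurons. Schwann cells wrap these axons in myelin within the cochlea, and oligodendrocytes do so in the central part of the nerve. In mice the myelin is laid down in the early postnatal weeks, before and around the onset of hearing, while the bony core of the cochlea that surrounds the nerve is still forming.

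Values are the deposited normalized read counts, and values of single libraries are listed in the order of replicates 4, 5 and 6 at P7 and 1, 2 and 3 at P3. The 6 libraries held 38148757 to 41501434 reads each, and 3 reads, the limit that a count of 0 allows, corresponded to a normalized count of 2.53 to 2.91. On log2 values the first principal component (62.4% of the variance) separated both ages. Pearson's r across genes, which are not independent replicates, was 0.986 to 0.992 within P7, 0.985 to 0.987 within P3 and 0.961 to 0.970 between the ages. Defining markers of the labelled tissue were present: Slc17a7, the vesicular glutamate transporter of these neurons, stood at 3868, 3543 and 3462 at P7 and 2920.2, 2549 and 3877 at P3, and Pmp22, a membrane protein of peripheral myelin, far higher. Markers of other tissue were present too. Col2a1, the collagen of cartilage, stood at 230304, 197052 and 241477 at P7 and 181425, 210743 and 243988 at P3, and Otof, a calcium sensor of hair cells, at 2328, 2618 and 2059 and 2029, 2553 and 2359.8. Certain libraries stood apart. P7 replicate 6 was the lowest P7 library for 15 of 16 astrocyte genes and 16 of 21 genes of mature oligodendrocytes. Dct, a melanocyte enzyme, stood at 94.9, 105 and 3102 at P7 and 6755, 2784 and 379 at P3, high in P7 replicate 6 and P3 replicates 1 and 2 and low in the other libraries. P3 replicate 1 was the lowest P3 library for most interferon, antigen presentation and bone genes, as given with them. P3 replicate 2 was the lowest P3 library for most neuronal genes: 20 of 28 of neuron identity, 24 of 27 of vesicle release and 9 of 10 sodium channels. P3 replicate 3 was the highest for 18, 23 and 9 of them. The identity genes summed to 124876, 103435 and 147444 at P3.

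Between P7 and P3, 2568 of 16723 genes tested rose (15.4%) and 2135 fell (12.8%) at a limma adjusted p under 0.05, together 28.1%. The median log2 fold change of all genes tested was -0.02. Every fold change given is P7 over P3, computed on log2(value + 1) and followed by its standard error (SE). The SE is for 3 libraries per age, with the spread estimated from all 15 libraries. At least 2-fold changes were fewer, 447 up (2.67%) and 503 down (3.01%). In 54.2% of genes the 3 P7 libraries did not overlap the 3 P3 libraries. The counts of each gene list, and each statement that the ages did not overlap, are to be read against these shares. The number that fell was 1378 when P7 replicate 4 was left out, 1264 when P7 replicate 5 was, and 1274 when P3 replicate 3 was. In whole tissue, fewer cells of a type and less RNA per cell cannot be told apart, which holds for every gene group that follows.

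**Figure D1:**
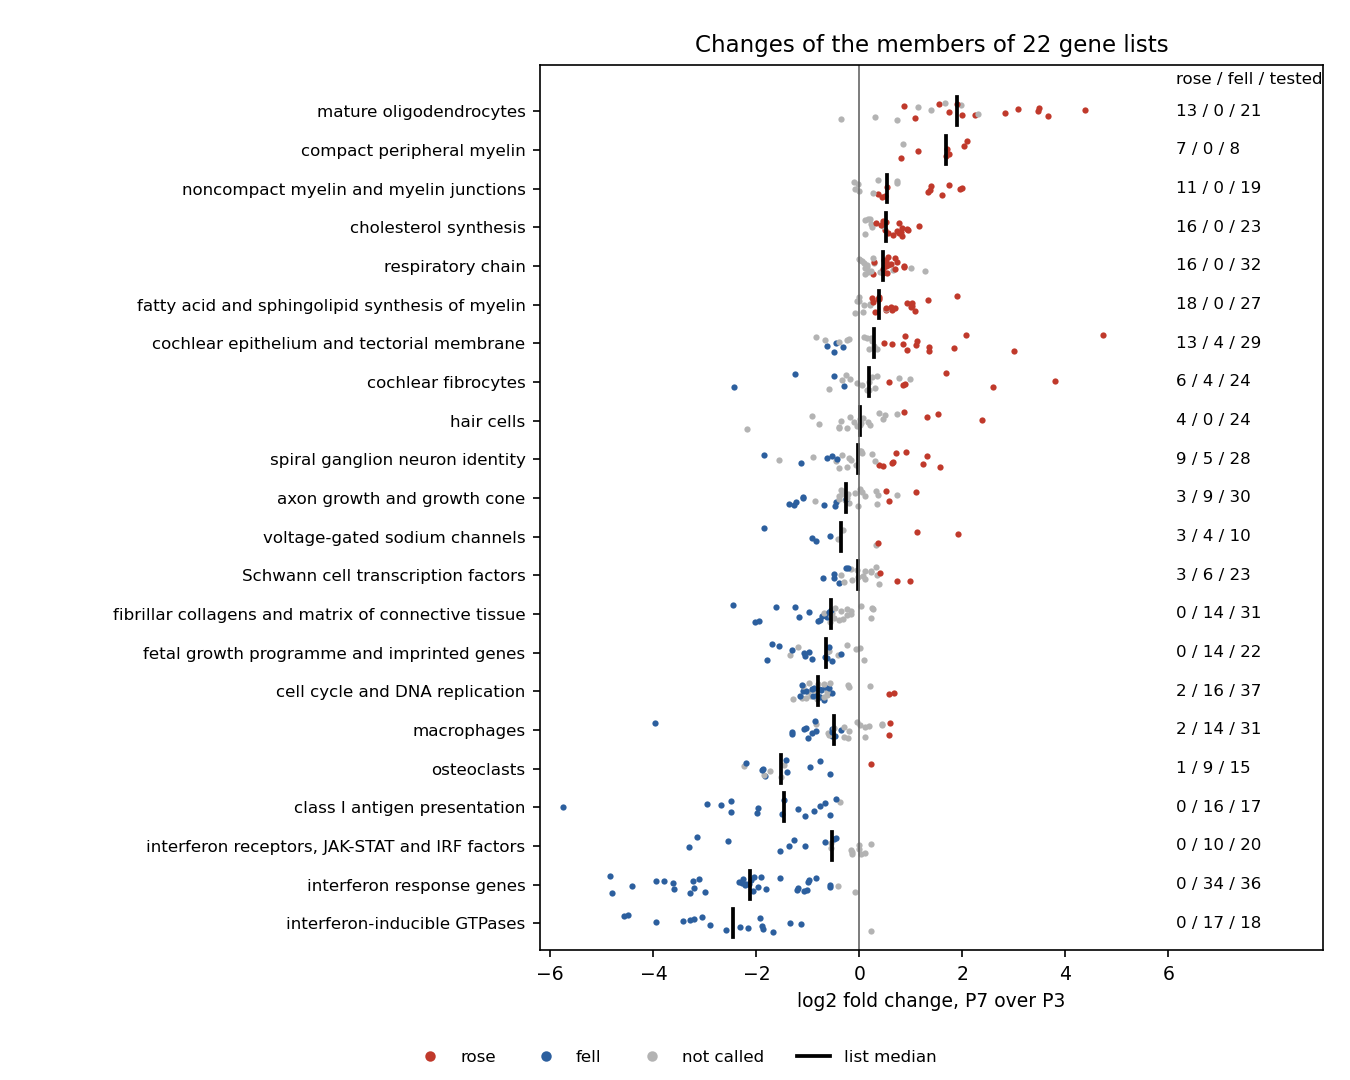
Log2 fold changes (P7 over P3, x axis) of every tested member of 22 gene lists, 1 point per gene, with red for genes that rose, blue for genes that fell, grey for genes not called and a black bar at the median of the list. Interferon and class I lists lie to the left of 0 with medians of -2.45 to -0.53, and the mature oligodendrocyte and compact myelin lists lie to the right with medians of 1.89 and 1.69. Some genes are members of several lists.

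Genes that interferons switch on were lower at P7 almost without exception. Interferons are cytokines of antiviral defence, and their receptors act through STAT and IRF factors that bind short motifs in the promoters of target genes. Of 36 interferon response genes tested, 34 fell and 0 rose (median log2 fold change -2.12). Of 18 interferon-inducible GTPases, which attack the membranes of intracellular pathogens, 17 fell and 0 rose (median -2.45). Of class I antigen presentation genes, 16 of 17 fell (median -1.46), and of class II genes 7 of 11 fell (median -1.29), while 0 of either list rose. Among all genes tested 12.8% fell. P3 replicate 1 was the lowest P3 library for 36 of 36 response genes, 18 of 18 GTPases and 17 of 17 class I genes. Without that library 34 response genes, 17 GTPases, 16 class I and 8 class II genes fell, with medians of -2.46, -2.86, -1.84 and -1.51.

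The promoters of 6 of these genes are shown because the motifs of interferon signalling can be read in them directly. Each line is the 250 bases before the gene's start, on the gene's strand, from RefSeq on mouse build GRCm38.p6, with every match in capitals. Capitals mark the interferon-stimulated response element, searched as GAAA, any 2 bases and GAAA, which complexes of STAT and IRF factors bind, and the gamma-activated site, searched as TTCNNNGAA, which STAT dimers bind. Both strands were searched. Isg15 encodes a ubiquitin-like modifier, Ifit1 a sensor of viral RNA, Gbp2 a guanylate-binding GTPase, Igtp and Irgm2 immunity-related GTPases and Irf1 a transcription factor.
Isg15 (chr4:156200819-156201068, minus strand): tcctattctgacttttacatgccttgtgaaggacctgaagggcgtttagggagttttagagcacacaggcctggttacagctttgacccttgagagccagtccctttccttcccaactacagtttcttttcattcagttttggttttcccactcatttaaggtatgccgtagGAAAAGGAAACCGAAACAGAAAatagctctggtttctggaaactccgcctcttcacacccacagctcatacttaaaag
Ifit1 (chr19:34640639-34640888, plus strand): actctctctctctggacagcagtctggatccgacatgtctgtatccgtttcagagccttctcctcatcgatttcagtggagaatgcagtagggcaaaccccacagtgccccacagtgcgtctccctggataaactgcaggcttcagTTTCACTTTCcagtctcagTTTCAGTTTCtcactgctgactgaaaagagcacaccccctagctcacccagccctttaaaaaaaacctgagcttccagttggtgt
Gbp2 (chr3:142620413-142620662, plus strand): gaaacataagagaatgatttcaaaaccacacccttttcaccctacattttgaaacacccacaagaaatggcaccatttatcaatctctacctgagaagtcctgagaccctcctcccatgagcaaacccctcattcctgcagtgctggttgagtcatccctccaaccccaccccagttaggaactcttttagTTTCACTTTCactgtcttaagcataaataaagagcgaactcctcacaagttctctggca
Igtp (chr11:58199306-58199555, plus strand): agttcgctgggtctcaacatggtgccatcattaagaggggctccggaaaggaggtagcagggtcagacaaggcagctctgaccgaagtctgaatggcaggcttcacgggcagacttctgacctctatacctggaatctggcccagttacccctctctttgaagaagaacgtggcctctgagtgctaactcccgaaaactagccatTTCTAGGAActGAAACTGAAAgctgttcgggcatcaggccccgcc
Irgm2 (chr11:58214727-58214976, plus strand): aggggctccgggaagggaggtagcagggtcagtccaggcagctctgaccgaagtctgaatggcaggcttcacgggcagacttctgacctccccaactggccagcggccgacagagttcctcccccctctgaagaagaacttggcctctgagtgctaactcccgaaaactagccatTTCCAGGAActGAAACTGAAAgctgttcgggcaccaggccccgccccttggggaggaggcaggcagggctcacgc
Irf1 (chr11:53769764-53770013, plus strand): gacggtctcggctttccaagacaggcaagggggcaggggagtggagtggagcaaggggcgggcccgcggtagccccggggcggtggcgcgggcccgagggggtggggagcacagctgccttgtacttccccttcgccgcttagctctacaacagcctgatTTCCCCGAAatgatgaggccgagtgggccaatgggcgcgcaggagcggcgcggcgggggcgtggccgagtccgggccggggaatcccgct

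In Isg15, 3 matches of the response element overlap, the first beginning 78 bases before the start. Ifit1 holds 2, beginning 104 and 85 bases before it, and Gbp2 holds 1 at 59 bases. Igtp and Irgm2 each hold a gamma-activated site followed by a response element (45 and 34 bases before the start in Igtp, 75 and 64 in Irgm2), and both windows share a run of 55 identical bases. The window of Irf1 holds a gamma-activated site 90 bases before the start. Of the GTPases with a promoter in the table, 9 of 10 held the response element (90.0%), as did 14 of 26 interferon response genes (53.8%). The share was 3 of 14 class I genes (21.4%), 3 of 18 receptors, kinases, STATs and IRFs (16.7%) and 1 of 8 class II genes (12.5%). Across 32851 windows of the same length the share was 2.98%. Counted per gene, with a match in any window of the gene as for the lists, it was 3.19% of 12872 genes tested. It was 6.06% of 1650 that fell and 3.14% of 1944 that rose. The gamma-activated site stood in 6 of 10 GTPases, against 7.26% of genes tested and 7.02% of all windows. Other lists held it less often: 4 of 26 response genes (15.4%), 1 of 14 class I genes (7.14%) and 1 of 8 class II genes (12.5%). Among receptors, kinases, STATs and IRFs it stood in 5 of 18 (27.8%). A match describes the sequence and is not a measured binding site.

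Several signalling factors fell, while the main receptor subunits did not pass the test. Of 20 receptors, kinases, STATs and IRFs, 10 fell and 0 rose. Irf1 stood at 823, 763 and 875 at P7 and 1738, 2963 and 2610.3 at P3 (log2 fold change -1.54 ± 0.18, limma adjusted p = 7.68e-05). Irf7, the amplifier of type I interferon, stood at 67.8, 64.9 and 75.1 at P7 and 391, 731 and 1166 at P3 (log2 fold change -3.31 ± 0.36, limma adjusted p = 5.04e-05). The ages did not overlap for either factor, and P3 replicate 1 was the lowest P3 library for both. Stat2 fell too (log2 fold change -1.27 ± 0.15), as did its partner Irf9 (-1.36 ± 0.18). The receptor subunit for type I interferon, Ifnar1, stood at 3823, 3968 and 4216 at P7 and 4207, 4365 and 4608 at P3, and the subunit for interferon gamma, Ifngr1, at 2035, 2025 and 2251 and 1750.5, 2172 and 1948. The ages overlapped for both receptors, with log2 fold changes of -0.13 ± 0.10 (limma adjusted p = 0.353) and 0.11 ± 0.09 (limma adjusted p = 0.389). Ifng, the gene of interferon gamma, is absent from the deposited table, so no level can be given for it. Other interferon genes, such as Ifnb1, were not analysed here.

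Among the response genes, Isg15 stood at 47.9, 46.5 and 46.0 at P7 and 298, 645 and 1058 at P3. Its P7 libraries were almost equal, whereas its P3 libraries spanned a wide range that stayed above the P7 level. Usp18, the protease that removes the Isg15 protein from its targets, stood at 28, 45.5 and 37.6 at P7 and 182, 339 and 594 at P3 (log2 fold change -3.16 ± 0.37, limma adjusted p = 8.70e-05). Ifit1 stood at 117, 131 and 125 at P7 and 378, 525 and 1001 at P3 (log2 fold change -2.23 ± 0.29, limma adjusted p = 0.00016). Again P3 replicate 1 was the lowest P3 library and no libraries overlapped. Ifit1 averaged 414 at P14, 1054 at P21 and 1379 in adults and Igtp 334 at P14, 415 at P21 and 487 in adults, and the later means of both lay above those at P7. Not every gene did so. The GTPase Iigp1 averaged 538 at P7, 271 at P14, 279 at P21 and 258 in adults. Gbp2 averaged 505 at P7, 424 at P14, 446 at P21 and 633 in adults.

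For the GTPases, per-library values of Igtp were 259, 291 and 295 at P7 and 1642, 3667 and 3415 at P3 (log2 fold change -3.28 ± 0.23, limma adjusted p = 1.93e-06). Iigp1, which coats the vacuoles of intracellular parasites, stood at 592, 558 and 464 at P7 and 3477, 6198 and 5639.7 at P3 (log2 fold change -3.21 ± 0.19, limma adjusted p = 1.26e-06). Gvin1, a very large interferon-inducible GTPase, stood at 69.6, 80.4 and 85.5 at P7 and 1033, 1366 and 1293 at P3 (log2 fold change -3.95 ± 0.24, limma adjusted p = 1.26e-06). In each the P3 libraries lay severalfold above all P7 libraries. Gbp2 fell as well (log2 fold change -2.58 ± 0.34), as did Irgm2 (-3.05 ± 0.27) and Ifi47 (-3.42 ± 0.33). Tgtp2 and Tgtp1, interferon-inducible GTPases of near-identical sequence, had log2 fold changes of -4.48 ± 0.31 and -4.58 ± 0.29. Reads of such paralogs, and of the Gbp, Irgm and H2 families, may have been split or shared by the authors' counting.

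Antigen presentation genes ranged from moderate to very large differences. Nlrc5, the activator of class I genes, stood at 21.7, 18.4 and 29.1 at P7 and 529, 1926 and 2072 at P3, with every P7 library far below every P3 library. Its log2 fold change was -5.76 ± 0.45, or -6.40 without P3 replicate 1, with limma adjusted p = 3.61e-06 with all libraries. Psmb8, a subunit of the immunoproteasome that cuts peptides for class I, stood at 201, 238 and 275 at P7 and 732, 2224 and 2208 at P3 (log2 fold change -2.69 ± 0.32, limma adjusted p = 0.0001). H2-K1, a class I heavy chain, stood at 708, 804 and 1049.9 at P7 and 2031, 4085 and 4482 at P3 (log2 fold change -1.99 ± 0.32, limma adjusted p = 0.000748). B2m, the light chain of all class I molecules, stood at 7329.8, 8708 and 9292 at P7 and 12184, 20945 and 20986 at P3 (log2 fold change -1.06 ± 0.23, limma adjusted p = 0.00445). None of these overlapped between ages, and B2m differed least. In class II, Ciita, the activator of its genes, stood at 8.13, 12.6 and 16.9 at P7 and 166, 509 and 411 at P3, and H2-Aa, an alpha chain, at 47.0, 35.8 and 53.5 and 165, 460.3 and 347 (log2 fold change -2.70 ± 0.42, limma adjusted p = 0.00057).

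**Figure D2:**
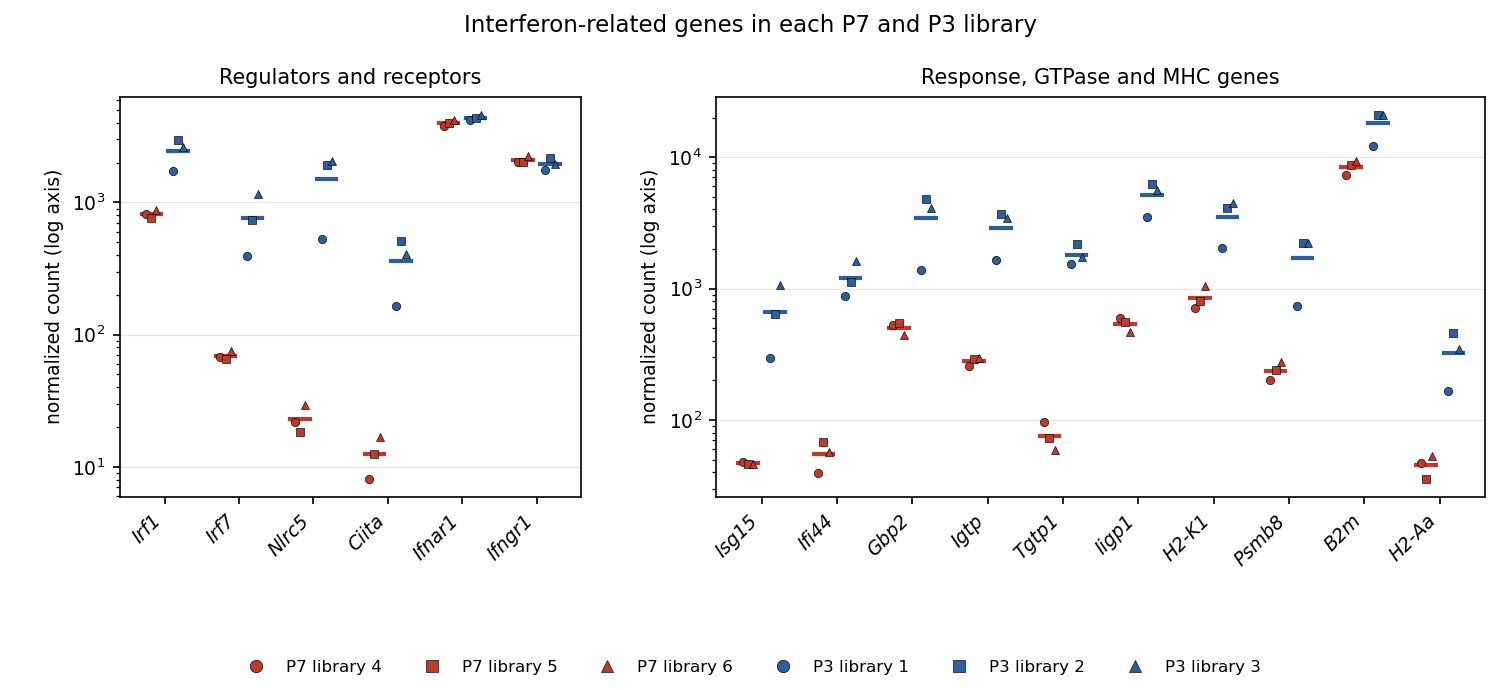
Normalized counts on a log axis in each library, P7 (red) left of P3 (blue), with a bar at the mean of each age, for interferon regulators and receptors in the left panel and for response, GTPase and antigen presentation genes in the right panel. The ages are apart for every gene but the receptors Ifnar1 and Ifngr1, and P3 replicate 1 (blue circles) lies lowest among the P3 libraries.

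Lists of immune cell genes differed in how they moved. Of 31 macrophage genes, 14 fell and 2 rose. The number that fell was 9 without any 1 of P7 replicate 5 and P3 replicate 2, and the number that rose was 1 without any 1 of P7 replicates 4, 5 and 6 and P3 replicates 1 and 3. The summed level of the list was 45587 to 48387 at P7 and 55054 to 69095 at P3. Csf1r, the receptor that sustains macrophages, stood at 5826, 5209.8 and 6689 at P7 and 8722, 13013 and 12068 at P3 (log2 fold change -0.92 ± 0.18, limma adjusted p = 0.00262). F13a1, a transglutaminase of tissue macrophages, fell (log2 fold change -1.30 ± 0.15). The list of T and natural killer cell genes summed to 352 to 425 at P7 and 537 to 741 at P3. Of its 11 genes tested 2 fell and 0 rose, and the number that fell was 0 without any 1 of P7 replicate 5 and P3 replicate 2 and 1 without any 1 of P7 replicates 4 and 6 and P3 replicate 3. Cd3e, a chain of the T-cell receptor complex, was at or under 3 reads in all 6 libraries. Among marrow myeloid genes 0 of 15 passed the test, and they summed to 779 to 2378 at P7 and 2374 to 5470.1 at P3. Of 13 B lymphoid genes 2 rose and 0 fell, and the number that rose was 1 without any 1 of the 6 libraries. These genes summed to 6647 to 7471 at P7 and 5543 to 6302 at P3. The part of these cells in the interferon and antigen presentation results was not tested. Among chemokines and cytokines 11 of 30 fell and 5 rose. Cxcl10, an interferon-induced attractant of T cells, stood at 18.1, 11.6 and 21.6 at P7 and 75.9, 272 and 238 at P3 (log2 fold change -3.28 ± 0.49, limma adjusted p = 0.000446), and Cxcl12, a chemokine of stromal cells, at 7905, 7569.7 and 10368 and 14734, 19496 and 19197 (log2 fold change -1.05 ± 0.15, limma adjusted p = 0.000274). Neither overlapped between ages. Il34, a ligand of Csf1r, rose by a log2 fold change of 0.93 ± 0.14, and Cx3cl1, a membrane-bound chemokine, by 0.44 ± 0.08.

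Myelin transcripts were higher at P7. Of 8 genes of compact peripheral myelin, 7 rose and 0 fell (median log2 fold change 1.69), and of 19 genes of noncompact myelin and its junctions, 11 rose and 0 fell (median 0.53), where 15.4% of all genes rose. Pmp22, a membrane protein of compact myelin, stood at 246381, 248470.0 and 306474 at P7 and 49085, 73622 and 67252 at P3. P7 replicate 6 was highest and P3 replicate 1 lowest, and no P3 library reached the P7 range. Mal, a raft protein that sorts myelin cargo, stood at 32326, 32018 and 40704 at P7 and 9054, 12561 and 11247 at P3 (log2 fold change 1.68 ± 0.14, limma adjusted p = 6.00e-06). Its close relative Pllp rose by 1.70 ± 0.13 on the log2 scale. Prx, the periaxin that anchors myelin to the basal lamina side, stood at 27247, 25814 and 42212 at P7 and 12114, 23048 and 22939 at P3. Its ages did not overlap, yet it missed the threshold (log2 fold change 0.74 ± 0.29, limma adjusted p = 0.0775).

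Of 29 node and paranode genes, 5 rose and 1 fell (median log2 fold change 0.03), with the rises near the 15.4% of all genes tested. The number that rose was 3 without any 1 of P7 replicate 4 and P3 replicate 3, and the number that fell was 0 without any 1 of P7 replicates 4, 5 and 6 and P3 replicates 1 and 3. Gldn, the gliomedin that gathers sodium channels at peripheral nodes, stood at 3957, 3803 and 5055 at P7 and 1134, 1836 and 2033 at P3 (log2 fold change 1.39 ± 0.18, limma adjusted p = 0.000159). Of the noncompact myelin list, Cnp, an enzyme of uncompacted myelin, stood at 51209, 54691 and 55989.8 at P7 and 17954, 25089 and 21979.6 at P3 (log2 fold change 1.33 ± 0.12, limma adjusted p = 1.20e-05). Fxyd3, a regulator of the sodium pump, stood at 736, 797 and 809 at P7 and 211, 195 and 198 at P3 (log2 fold change 1.95 ± 0.14, limma adjusted p = 2.00e-06). All 3 genes were separate between ages, and P3 replicate 1 was the lowest library for Gldn and Cnp but not for Fxyd3. Cntf, a neurotrophic factor of Schwann cells, stood at 305, 374 and 296 at P7 and 84.3, 79.7 and 85.7 at P3 (log2 fold change 1.94 ± 0.14, limma adjusted p = 2.00e-06).

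Many lipid-making enzymes of myelin rose as well, and 0 fell in either list. Of 27 genes of fatty acid and sphingolipid synthesis, 18 rose (median log2 fold change 0.39), and of 23 genes of cholesterol synthesis, 16 rose (median 0.51). Ugt8a, which makes galactosylceramide, the main glycolipid of myelin, stood at 19034, 21088 and 20345 at P7 and 4709, 5929 and 5755 at P3 (log2 fold change 1.89 ± 0.17, limma adjusted p = 1.00e-05). Scd1, a desaturase of fatty acids, stood at 13946, 14781 and 12938 at P7 and 5639.9, 5328 and 5648 at P3 (log2 fold change 1.32 ± 0.09, limma adjusted p = 2.00e-06). The libraries of an age lay close together for both enzymes and the ages were far apart. Fa2h, the hydroxylase of myelin lipids, rose by 1.03 ± 0.17, Gal3st1, which makes sulfatide, by 0.92 ± 0.12 and Gpam, which starts glycerolipid synthesis, by 1.01 ± 0.13 on the log2 scale. Hmgcs1, an enzyme early in cholesterol synthesis, stood at 26640.4, 27712 and 26143 at P7 and 13674, 13544 and 14504 at P3 (log2 fold change 0.95 ± 0.11, limma adjusted p = 0.000104). Insig1, a sterol-dependent brake on the pathway, rose by 0.83 ± 0.08, and the pathway enzymes Fdft1 and Nsdhl by 0.78 ± 0.10 and 0.77 ± 0.11.

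Genes of mature oligodendrocytes were higher at P7 too, with a wide spread between libraries. Of 21 genes, 13 rose and 0 fell (median log2 fold change 1.89), and the number that rose was 8 without P7 replicate 5. The list shares Ugt8a with the list of fatty acid and sphingolipid synthesis and Gjb1 with the noncompact myelin list. The counts of these lists are therefore not independent. Mog, a surface protein of central myelin, had a log2 fold change of 4.37 ± 0.96 (limma adjusted p = 0.00515), or 5.08 without P7 replicate 6, whose value of 517 was the lowest at P7. Mag, an adhesion protein on the axon side of myelin, stood at 13254, 16956 and 10731 at P7 and 3245, 4681 and 4215 at P3 (log2 fold change 1.74 ± 0.35, limma adjusted p = 0.00275). Trf, the iron carrier transferrin, stood at 9682, 13094 and 10013 at P7 and 5831, 2925 and 2995 at P3 (log2 fold change 1.54 ± 0.26, limma adjusted p = 0.00101). Both were separate between ages. Earlier stages of the lineage changed less uniformly: 1 precursor gene rose and 2 fell of 13, and 3 rose and 2 fell of 12 genes of newly formed cells. Gfap, a filament of astrocytes, is also a member of the list of immature and nonmyelinating Schwann cells. Gfap stood at 6055, 8882 and 3124 at P7 and 5273, 665 and 1357 at P3. It overlapped between ages (log2 fold change 1.71 ± 0.82, limma adjusted p = 0.136), being high in P3 replicate 1 and low in P7 replicate 6. Astrocyte genes summed to 49521 to 76854 at P7 and 42061 to 63214 at P3. How much of the central part of the nerve each dissection held was not measured, and its part in the oligodendrocyte result was not tested.

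**Figure D3:**
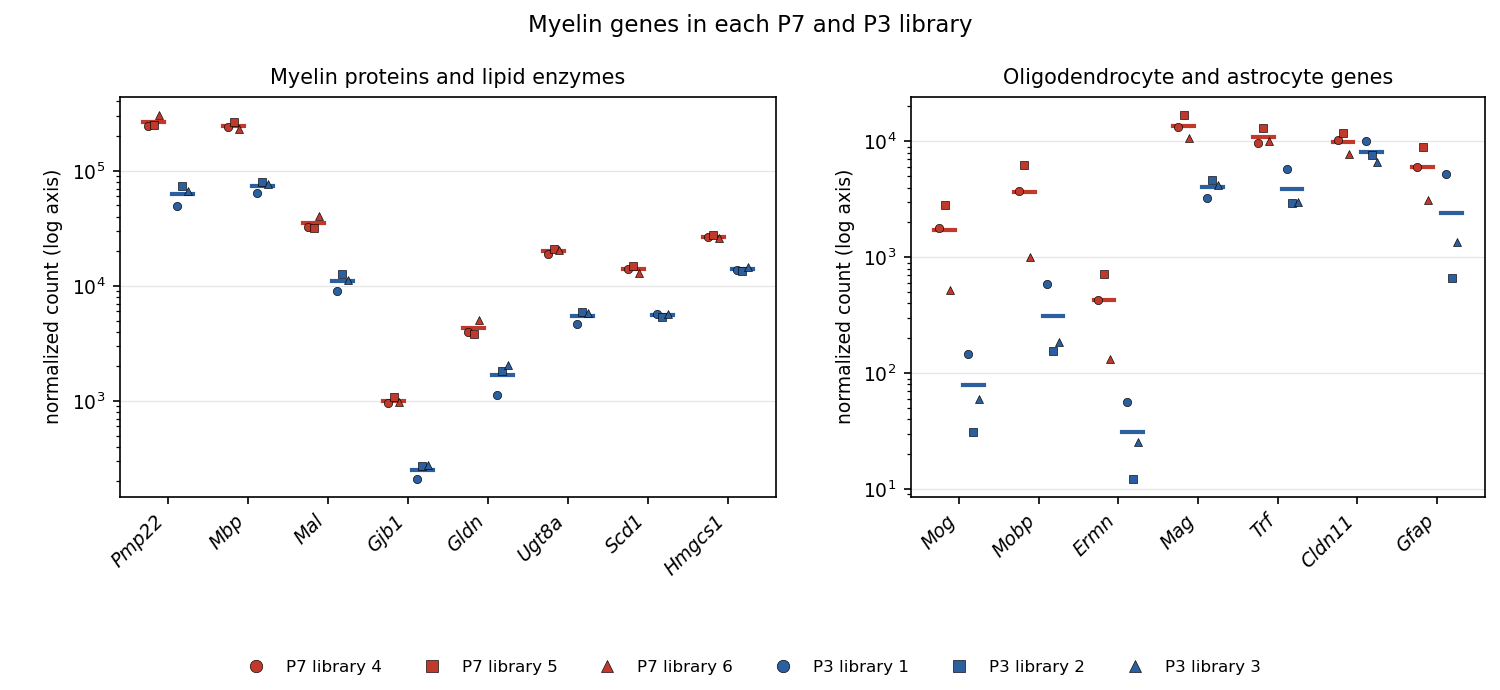
Normalized counts on a log axis in each library, P7 (red) left of P3 (blue), with a bar at the mean of each age. Myelin proteins and lipid enzymes (left) are tight within an age and apart between ages, whereas Mog, Mobp, Ermn and Gfap (right) are spread within an age, with P7 replicate 6 (red triangles) the lowest P7 library for each.

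Among 23 transcription factors of the Schwann cell lineage, 3 rose and 6 fell (median log2 fold change -0.02), against 15.4% and 12.8% of all genes tested. The number that fell was 3 without any 1 of P7 replicates 5 and 6 and P3 replicates 2 and 3. Egr2, the driver of the myelin programme, stood at 2787, 2542 and 4437 at P7 and 1734, 2998 and 2718 at P3. Pou3f1, which acts before Egr2, stood at 932, 763 and 1443 at P7 and 547, 999 and 909.7 at P3. Both overlapped between ages and neither passed the test (limma adjusted p = 0.192 for Egr2 and 0.27 for Pou3f1). Nab2, a corepressor bound by Egr2, stood at 1405, 1240.5 and 1248 at P7 and 1869, 2463 and 2091 at P3 (log2 fold change -0.71 ± 0.10, limma adjusted p = 0.00029). Pou3f2, a relative of Pou3f1, fell (log2 fold change -0.50 ± 0.11). Id2, an inhibitor of basic helix-loop-helix factors, stood at 17064, 16658 and 15846 at P7 and 8022, 8762 and 8434 at P3 (log2 fold change 0.98 ± 0.09, limma adjusted p = 2.00e-05), and its relative Id4 rose by 0.72 ± 0.11 on the log2 scale. Neither Nab2 nor Id2 overlapped between ages. Of genes that mark immature and nonmyelinating Schwann cells 3 rose and 5 fell of 16 (median log2 fold change -0.37), and the number that fell was 3 without P3 replicate 3. L1cam, an adhesion molecule of axons and nonmyelinating Schwann cells, stood at 729, 815 and 860.2 at P7 and 1616, 1427 and 2155 at P3 (log2 fold change -1.09 ± 0.17, limma adjusted p = 0.00066), and Cdh2, the N-cadherin, fell (log2 fold change -0.70 ± 0.14). Cdh19, a cadherin of Schwann cell precursors, rose by 0.56 ± 0.10 and Scn7a, the sodium channel of nonmyelinating Schwann cells, by 1.11 ± 0.20.

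Neuronal genes moved in both directions. Of 28 genes of spiral ganglion neuron identity, 9 rose and 5 fell (median log2 fold change -0.02), against 15.4% and 12.8% of all genes tested. The number that fell was 3 without any 1 of P7 replicates 4 and 6 and P3 replicate 1. Calb2, the calcium buffer calretinin, stood at 20675, 18091 and 20752 at P7 and 5783, 7344 and 7072 at P3 (log2 fold change 1.56 ± 0.17, limma adjusted p = 3.90e-05). Thy1, a surface glycoprotein of neurons, stood at 3918, 3696 and 4151 at P7 and 2200.5, 1654 and 2517 at P3 (log2 fold change 0.90 ± 0.13, limma adjusted p = 0.000352). Gata3, a factor of inner ear neurons and epithelium, stood at 7086, 6126 and 4767 at P7 and 2149, 2765 and 2710.1 at P3 (log2 fold change 1.23 ± 0.26, limma adjusted p = 0.00362). All 3 were separate between ages, with P7 higher. Ntrk3, the receptor for neurotrophin 3 on these neurons, stood at 1688, 1761 and 1954 at P7 and 2732, 2139 and 2492 at P3, with P7 lower and no overlap (log2 fold change -0.44 ± 0.12, limma adjusted p = 0.0129). Its limma adjusted p was 0.0556 when P7 replicate 4 was left out and 0.0516 when P3 replicate 1 was. The broad neuronal tubulin Tubb3 stood at 7152, 5909 and 7241 at P7 and 7589, 4974 and 7855 at P3, overlapping and not called (log2 fold change 0.02 ± 0.16, limma adjusted p = 0.955), and Slc17a7 had a log2 fold change of 0.24 ± 0.13 (limma adjusted p = 0.18).

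Of 30 genes of the growing axon, 9 fell and 3 rose (median log2 fold change -0.25). Crmp1, a mediator of semaphorin signals, stood at 1039, 1041 and 757 at P7 and 2598, 1536 and 2832 at P3 (log2 fold change -1.26 ± 0.19, limma adjusted p = 0.000487). Dpysl5, a related collapsin response protein, stood at 833, 895 and 715 at P7 and 2152, 1398 and 2276 at P3 (log2 fold change -1.23 ± 0.20, limma adjusted p = 0.000885). Mapt, the microtubule protein tau, stood at 2098, 2341 and 2094 at P7 and 5226, 3275 and 5807 at P3 (log2 fold change -1.09 ± 0.17, limma adjusted p = 0.00068). P3 replicate 2 was the lowest P3 library for all 3 and for 24 of the 30 genes of the list, and still lay above every P7 library for these 3. Stmn3, a stathmin, went the other way, at 15121, 14764 and 15749 at P7 and 8102, 5913 and 7459.9 at P3 (log2 fold change 1.10 ± 0.15, limma adjusted p = 0.000242). Gap43 of the growth cone stood at 1141, 1086 and 763 at P7 and 1934, 1489.9 and 1930.4 at P3 and was not called (limma adjusted p = 0.138), although its ages did not overlap.

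Voltage-gated sodium channels divided into 3 that rose and 4 that fell of 10, against 15.4% and 12.8% of all genes tested. Scn4b, an accessory subunit that supports fast repetitive firing, stood at 1516, 1593 and 1496 at P7 and 374, 339 and 539.6 at P3 (log2 fold change 1.90 ± 0.18, limma adjusted p = 1.50e-05). Scn9a, a channel of peripheral neurons, stood at 287, 147 and 251 at P7 and 775, 680.4 and 956 at P3 (log2 fold change -1.85 ± 0.30, limma adjusted p = 0.000732). Scn2a, the early channel of unmyelinated axons, stood at 572, 531 and 589.8 at P7 and 1091, 749.7 and 1261 at P3 (log2 fold change -0.84 ± 0.20, limma adjusted p = 0.00701). Scn3a, an embryonic channel, fell (log2 fold change -0.92 ± 0.22). None of these overlapped between ages. Scn8a, the channel of mature nodes, stood at 1117, 1220.1 and 1129 at P7 and 1437, 1074 and 1964 at P3, and Scn1a at 3065, 2620.4 and 3209.9 and 2501, 1811 and 2923. Both overlapped and were not called (limma adjusted p = 0.214 and 0.302). Scn4b and Scn8a averaged more at later ages, 12424 at P14, 14770.5 at P21 and 25661 in adults for Scn4b and 6108 at P14, 7723 at P21 and 20841 in adults for Scn8a.

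Of 28 potassium and HCN channel genes, 6 rose and 3 fell, where 15.4% of all genes tested rose and 12.8% fell. Kcna1, a low-threshold channel that sits beside the node, stood at 12292, 11994 and 18939 at P7 and 5056, 8055 and 9042 at P3 (log2 fold change 0.97 ± 0.23, limma adjusted p = 0.00668). Kcnk1, a leak channel, stood at 5522, 5192 and 6318 at P7 and 2283, 2420.0 and 2356 at P3 (log2 fold change 1.27 ± 0.10, limma adjusted p = 4.00e-06). Kcna6, a relative of Kcna1, stood at 1042, 1045 and 1302 at P7 and 1902, 2279 and 2653 at P3 (log2 fold change -1.01 ± 0.20, limma adjusted p = 0.00264), and Kcna4, an inactivating channel, at 185, 182 and 199 and 384, 378 and 345 (log2 fold change -0.96 ± 0.21, limma adjusted p = 0.00526). All 4 were separate between ages, and Kcna6 and Kcna4 were the lower ones at P7. Kcnip2, an accessory subunit of potassium channels, rose by 1.19 ± 0.12. Among 27 genes of vesicle release 3 rose and 4 fell, shares near the 15.4% and 12.8% of all genes tested, and without P3 replicate 3 these counts were 5 and 2. Vamp1, the vesicle protein of fast synapses, stood at 12201, 10103 and 12011 at P7 and 5085, 4465 and 6059 at P3 (log2 fold change 1.14 ± 0.11, limma adjusted p = 1.50e-05), and Snap25, its membrane partner, rose by 0.71 ± 0.14. Chrnb4, a subunit of nicotinic acetylcholine receptors, stood at 513, 618 and 372 at P7 and 81.7, 89.2 and 69.7 at P3 (log2 fold change 2.60 ± 0.66, limma adjusted p = 0.0106), with no overlap.

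**Figure D4:**
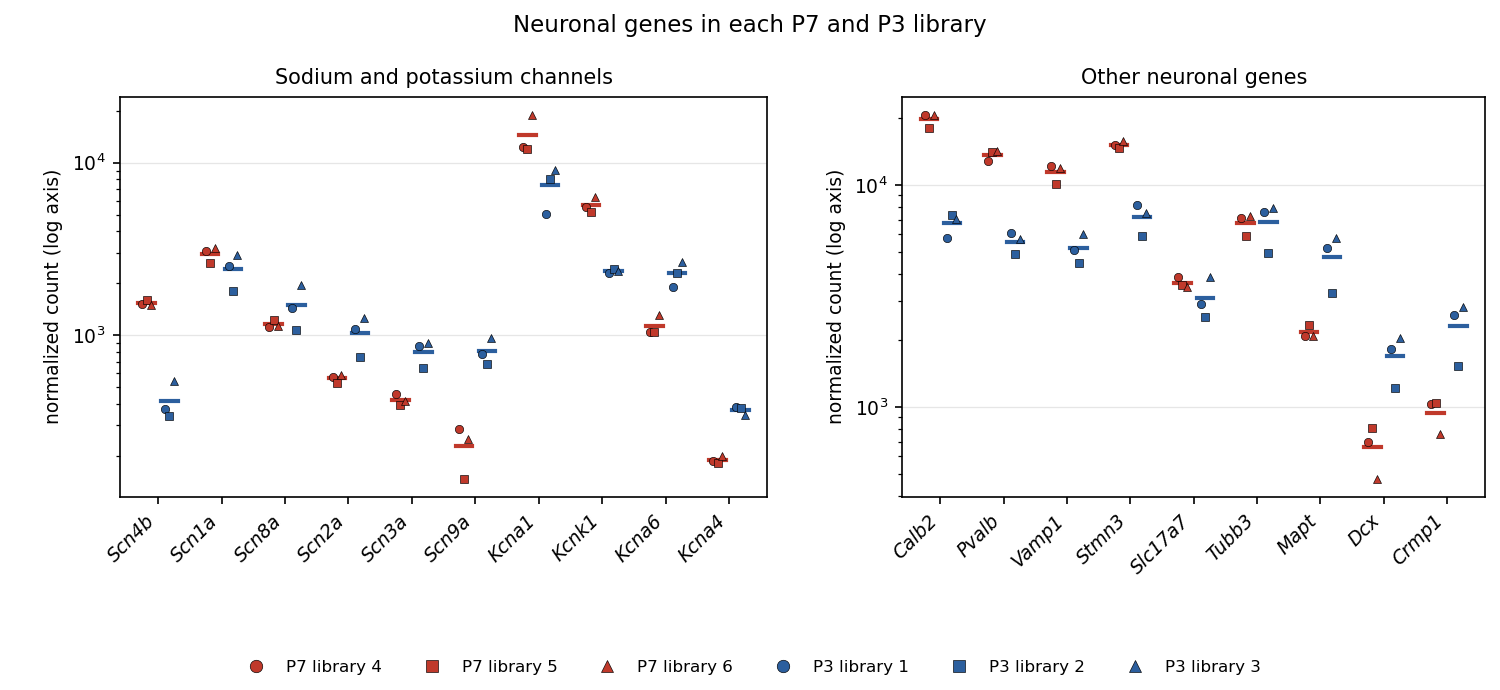
Normalized counts on a log axis in each library, P7 (red) left of P3 (blue), with a bar at the mean of each age. Scn4b, Kcna1, Kcnk1, Calb2, Pvalb, Vamp1 and Stmn3 lie higher at P7, Scn2a, Scn3a, Scn9a, Kcna6, Kcna4, Mapt, Dcx and Crmp1 lie lower, and Scn1a, Scn8a, Slc17a7 and Tubb3 overlap.

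Transcripts of bone, cartilage and connective tissue, which surround the nerve, moved in both directions. Of 31 genes of collagens and matrix, 14 fell and 0 rose (median log2 fold change -0.56), and the number that fell was 9 without any 1 of P7 replicate 4 and P3 replicate 3. Col1a1, the collagen of bone and fibrous tissue, stood at 46265, 39324 and 75458 at P7 and 138022, 228989 and 253286 at P3 (log2 fold change -1.96 ± 0.42, limma adjusted p = 0.0043). Tnc, the matrix glycoprotein tenascin C, stood at 4519.9, 5603 and 10239 at P7 and 25148, 41528 and 40743 at P3 (log2 fold change -2.45 ± 0.55, limma adjusted p = 0.00579). P3 replicate 1 was the lowest P3 library for 29 of the 31 genes and P7 replicate 6 the highest P7 library for 26, and neither gene overlapped between ages. Of 13 small leucine-rich proteoglycans, which bind collagen fibrils, 4 rose and 5 fell, and the number that fell was 3 without P7 replicate 6. Podn of this family stood at 317, 259 and 328 at P7 and 2037, 1826 and 2426 at P3 (log2 fold change -2.79 ± 0.28, limma adjusted p = 2.40e-05), whereas Dcn, decorin, rose by 0.80 ± 0.07 on the log2 scale. Cartilage genes split into 4 that rose and 8 that fell of 22. Acan, the aggrecan of cartilage, stood at 1098, 1052 and 1524 at P7 and 2227, 3547 and 4367 at P3 (log2 fold change -1.43 ± 0.29, limma adjusted p = 0.0033), and Matn1, a matrilin, at 144, 165 and 202 and 672, 594 and 575 (log2 fold change -1.86 ± 0.38, limma adjusted p = 0.00311). Both were lower in every P7 library than in any P3 library, while Col2a1 overlapped (limma adjusted p = 0.797).

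Osteoclast genes fell in 9 of 15 cases and rose in 1 (median log2 fold change -1.53), and their summed level was 45848 to 67268 at P7 and 105134 to 178224 at P3. The single rise was lost without any 1 of P7 replicates 4, 5 and 6 and P3 replicates 1 and 3. Mmp13, the collagenase of bone and hypertrophic cartilage, stood at 1506, 1371 and 4133 at P7 and 23276, 31709 and 24815 at P3 (log2 fold change -3.69 ± 0.92, limma adjusted p = 0.0102). Its P7 replicate 6 lay well above the other P7 libraries but far below P3. Of 20 osteoblast and bone matrix genes, 4 rose and 3 fell, shares near the 15.4% and 12.8% of all genes tested. The number that rose was 2 without any 1 of P7 replicates 4, 5 and 6 and P3 replicates 1 and 3. Bglap2, an osteocalcin of mature osteoblasts, stood at 10622, 9748 and 9266 at P7 and 719.7, 2194 and 2104 at P3 (log2 fold change 2.72 ± 0.65, limma adjusted p = 0.00817). Neither Mmp13 nor Bglap2 overlapped between ages, and Bglap2 may share reads with its near-identical neighbour Bglap. Acp5, the acid phosphatase of osteoclasts, stood at 12463, 10997 and 16997 at P7 and 26868, 49405 and 41960.0 at P3, separate but not called (limma adjusted p = 0.115).

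Genes of the cell cycle fell in 16 of 37 cases and rose in 2 (median log2 fold change -0.81). The number that fell was 7 without any 1 of P7 replicates 4 and 5, 8 without any 1 of P3 replicates 1, 2 and 3 and 9 without P7 replicate 6. With only the P7 and P3 libraries in the fit it was 34 of 37, while the number over all genes was 3335 against 2135 in the main fit. Ccnd2, a cyclin of the G1 phase, stood at 3146, 3304 and 3239.9 at P7 and 7482, 6967 and 7176 at P3 (log2 fold change -1.16 ± 0.16, limma adjusted p = 0.000324). Ccnd1, its relative, fell (log2 fold change -0.90 ± 0.14). Cdkn1b, an inhibitor of cyclin-dependent kinases, stood at 6655, 6748 and 7009 at P7 and 3956, 4631 and 4236 at P3 (log2 fold change 0.67 ± 0.11, limma adjusted p = 0.00108). The libraries of an age were close together for these cyclins and the inhibitor. Mki67, a marker of dividing cells, stood at 1899.8, 2128 and 2409 at P7 and 3959, 4579 and 5177 at P3, separate but not called (limma adjusted p = 0.131).

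In a list of fetal growth and imprinted genes, 14 of 22 fell and 0 rose (median log2 fold change -0.65), and the number was 9 without any 1 of P7 replicate 5 and P3 replicate 3. Plagl1, an imprinted zinc finger factor, stood at 1696, 1341 and 1301 at P7 and 3858, 4375 and 4592 at P3 (log2 fold change -1.57 ± 0.10, limma adjusted p = 2.00e-06). Mest, an imprinted enzyme of mesoderm, stood at 3427, 3099 and 3797 at P7 and 7373, 9062 and 9005 at P3 (log2 fold change -1.30 ± 0.09, limma adjusted p = 2.00e-06). H19, an imprinted noncoding RNA, stood at 110832, 99439 and 109855 at P7 and 142752, 176408 and 178030.0 at P3 (log2 fold change -0.63 ± 0.15, limma adjusted p = 0.00869). All 3 were separate between ages, H19 by the least. Igf2bp3, a fetal RNA-binding protein, was 2.10-fold lower and Grb10, an imprinted brake on insulin signalling, 1.88-fold lower. Igf2, the growth factor expressed from the locus next to H19, stood at 83274, 81193 and 80656 at P7 and 99397, 108370.0 and 120419 at P3 and was not called (limma adjusted p = 0.139).

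Epithelial and fibrocyte transcripts of the cochlea were part of the dissections and held several of the largest rises. In the list of cochlear epithelium and tectorial membrane, 13 of 29 rose and 4 fell, where 15.4% of all genes tested rose and 12.8% fell. The number that fell was 2 without any 1 of P7 replicates 5 and 6 and P3 replicates 2 and 3. Tmprss9, a transmembrane serine protease, stood at 18237, 19138 and 12296 at P7 and 455, 686 and 740.2 at P3 and averaged 2075 at P14, 186 at P21 and 36.6 in adults. Otoa, the otoancorin that attaches the tectorial membrane, stood at 18897, 20865 and 15458 at P7 and 7505, 9182 and 8487 at P3 (log2 fold change 1.13 ± 0.20, limma adjusted p = 0.0013). Gata2, a transcription factor, rose by 1.11 ± 0.14 and Epyc, a proteoglycan of supporting cells, by 1.35 ± 0.34 on the log2 scale. Tectb rose by 0.89 ± 0.24, a call lost without P7 replicate 4 or 5 and with quantile normalization. Tecta stood at 20932, 15802 and 13312 at P7 and 22758, 30844 and 35915 at P3. It was lower at P7 without overlap but not called (log2 fold change -0.84 ± 0.52, limma adjusted p = 0.243). Oc90 stood at 18016, 19009 and 11021 and 21708, 24718 and 15752, overlapping and not called (limma adjusted p = 0.275). Of 24 fibrocyte genes 6 rose and 4 fell, against 15.4% and 12.8% of all genes tested. Log2 fold changes in the list ran from -2.43 (Crym, given with the thyroid hormone genes) to 3.79 (Otos). The list summed to 278315 to 305153 at P7 and to 279866, 182114 and 172511 at P3. P3 replicate 1 was the highest P3 library for 18 of the 24 genes and its sum lay within the P7 range. Coch, the cochlin of the extracellular matrix, stood at 43226, 47125 and 37891 at P7 and 8162, 6912 and 6218 at P3 (log2 fold change 2.59 ± 0.25, limma adjusted p = 2.07e-05) and averaged 427460.0 at P14, 705647 at P21 and 347844 in adults. Otos, the otospiralin of fibrocytes, stood at 43189, 53137 and 42584 at P7 and 2956, 3623 and 3415 at P3. For Tmprss9, Otoa, Coch and Otos the lowest P7 library was above the highest P3 library. Among hair cell genes 4 of 24 rose and 0 fell, with the rises near the 15.4% of all genes tested. Ocm, the oncomodulin of outer hair cells, stood at 1402, 2018 and 1298 at P7 and 259.6, 359 and 274 at P3 (log2 fold change 2.39 ± 0.58, limma adjusted p = 0.00902).

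Among called genes with at least 10 normalized CPM at the higher age and no overlap, the 15 that rose most also held genes not named above. Fam178b stood at 1477, 1705 and 2019 at P7 and 104, 198 and 201 at P3 (log2 fold change 3.41 ± 0.21, limma adjusted p = 1.26e-06). Prss36, a secreted serine protease, stood at 4894, 5914 and 4172 at P7 and 544, 436 and 428 at P3 (log2 fold change 3.40 ± 0.25, limma adjusted p = 2.03e-06). Otop1, a proton channel needed for otoconia, stood at 502, 469 and 538 at P7 and 40.5, 108 and 111 at P3 (log2 fold change 2.66 ± 0.28, limma adjusted p = 3.60e-05). All 3 were separate between ages. Their later means were 5916 at P14, 6089 at P21 and 3228 in adults for Fam178b, 16943 at P14, 14828 at P21 and 6786 in adults for Prss36 and 2144 at P14, 2061 at P21 and 1812 in adults for Otop1. Entpd8, an enzyme that hydrolyses extracellular nucleotides, rose by 3.28 ± 0.23, Crb2, a cell polarity protein, by 2.60 ± 0.24, Myl1, a myosin light chain of muscle, by 2.71 ± 0.21 and Tmem221 by 2.48 ± 0.27 on the log2 scale. Myl1 belongs to a list of skeletal muscle genes that summed to 1308 to 1817 at P7 and 504 to 769 at P3. Of the 12 genes tested in that list 2 rose and 0 fell, with the rises near the 15.4% of all genes tested.

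Thyroid hormone drives the maturation of the cochlea before hearing. Of 13 genes of its transport, activation and response, 4 rose and 1 fell (median log2 fold change 0.28), against 15.4% and 12.8% of all genes tested. Slco1c1, a thyroxine transporter, stood at 10778, 10596 and 9897 at P7 and 3984, 3142 and 3205 at P3 (log2 fold change 1.61 ± 0.12, limma adjusted p = 2.00e-06). Dio2, the deiodinase that activates the hormone, stood at 24663, 24094 and 23398 at P7 and 8131, 10219.9 and 11056 at P3 (log2 fold change 1.31 ± 0.26, limma adjusted p = 0.00297). Hr, a corepressor that is itself a hormone target, stood at 3549, 4008 and 2874 at P7 and 617, 928 and 1034 at P3 (log2 fold change 2.04 ± 0.18, limma adjusted p = 9.00e-06). These were higher in every P7 library than in any P3 library. Klf9, another hormone target, rose by 1.06 ± 0.16. Crym, a cytosolic binder of the hormone, stood at 1115, 882 and 1155 at P7 and 9647, 4688 and 3942 at P3 (log2 fold change -2.43 ± 0.33, limma adjusted p = 0.000257), lower in every P7 library and highest in P3 replicate 1. The receptor Thra had a log2 fold change of -0.16 ± 0.12 (limma adjusted p = 0.346) and Thrb of 0.04 ± 0.10 (limma adjusted p = 0.766), overlapping between ages.

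**Figure D5:**
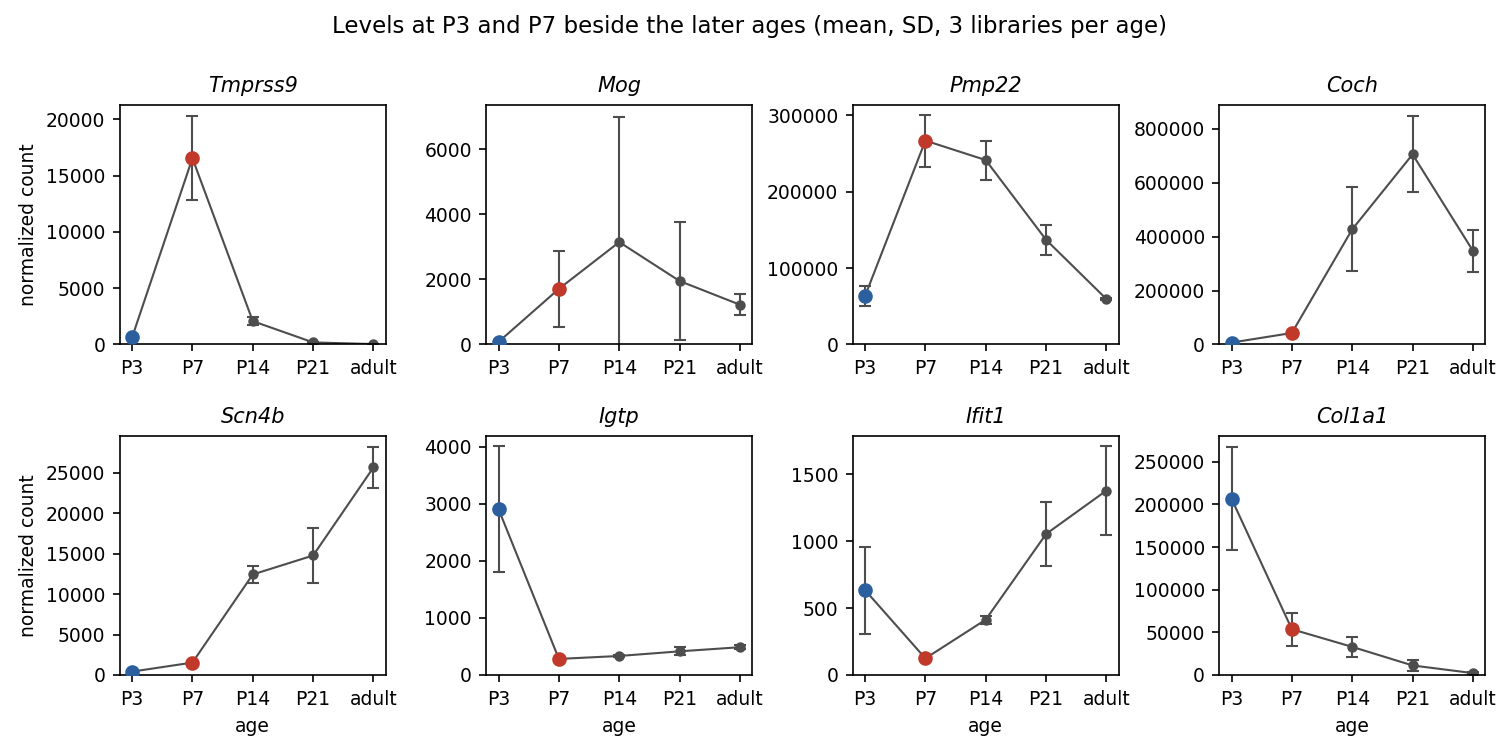
Mean normalized counts with SD (error bars, 3 libraries per age; bars that would pass below 0 end at the axis) of 8 genes over the ages P3 (blue), P7 (red), P14, P21 and adult. Tmprss9 is highest at P7, Pmp22 at P7 and P14, Coch at P21 and Scn4b in adults, while Igtp and Ifit1 are lowest at P7 and Col1a1 is highest at P3.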

How the data were processed

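The authors' deposited table holds 1 normalized signal per gene and library for 18536 genes and 15 libraries. Per the submitters' processing notes, Partek, TopHat2, DESeq2 and mm10 were used, and strand use and counting settings are not given in the sources used here. Antisense and overlapping genes can therefore share reads. The deposited signal was read as a read count divided by 1 size factor per library, since 99.9% of values were whole multiples of 1 step within a tolerance of 0.1. The authors' own p-values and fold changes were not used here.

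Values were tested as log2(value + 1) with limma 3.58.1 (R 4.3.3, trend and robust empirical Bayes). The fit took all 15 libraries, had no covariate and left 10 residual degrees of freedom. The 16723 genes that reached 10 in 3 or more libraries were tested. A gene was called when its two-sided p, adjusted by the Benjamini-Hochberg method over these genes, was under 0.05. Some adjusted p-values were rounded to 6 decimals, so the smallest printed ones are approximate. On the recovered reads edgeR 4.0.16 called 4741 genes, of which 4572 were also called by limma. Other alternatives were DESeq2 1.42.0, TMM and quantile scaling, pseudocounts of 0.1 and 10, no filter and a filter of 50, only the 6 libraries in the fit, and each library left out. The code was tested on simulated data. P-values rest on the spread between mice of the same age, pooled over all 5 ages with 3 mice each. They do not rest on the spread of the P7 and P3 mice alone. The limit of 3 reads for a value of 0 covers counting error only, as PCR copies of a molecule were not told apart.

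The comparison, the 60 gene lists and the rules were chosen with earlier results of these data known. In each direction, the 15 called genes with the largest fold changes were named, if they reached a mean of 10 normalized CPM and the ages did not overlap. For each list, up to 5 called members per direction and up to 3 uncalled members were also named, besides 49 set genes. Irf9, Ifngr1, Ifit1, Irgm2, H2-K1, B2m, Tubb3 and Dct were chosen after their values were seen. Promoters (RefSeq, GRCm38.p6) were searched over the 250 bases before each start.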

Additional observations from a re-analysis of the deposited data

How the results depend on the processing

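The number of genes that rose, 2568, lay between 2510 and 3274 under the other settings and between 1801 and 2335 with 1 library left out. The number that fell, 2135, lay between 1961 and 2704 under the other settings, was 3335 with only the P7 and P3 libraries in the fit, and lay between 1264 and 1825 with 1 library left out. No named gene that was called changed direction under any alternative run. The sign changed under at least 1 alternative for 40 named genes that were not called, Col2a1 and Otof among them, and for the medians of 12 lists. The median reached 0.05 for Schwann cell transcription factors and 0.10 for spiral ganglion neuron identity without P3 replicate 3, and -0.38 for B lymphoid cells without P7 replicate 5. Of 343 named genes that were called, 255 kept their call under every alternative run and 88 lost it under at least 1. With only the P7 and P3 libraries in the fit, the number that fell was 34 for the cell cycle, 14 for osteoclasts, 12 for endothelial cells, 8 for immature Schwann cells, 5 for potassium channels, 5 for marrow myeloid cells, 5 for hair cells, 4 for T and natural killer cells, 2 for the node, 5 for oligodendrocyte precursors, 2 for thyroid hormone and 1 for mature oligodendrocytes. The number that rose in that fit was 5 for axon growth, 5 for BMP and TGF-beta signalling, 5 for apoptosis, 2 for oligodendrocyte precursors and 1 for collagens. With quantile normalization 4 oligodendrocyte precursor genes fell and 1 macrophage gene rose. With DESeq2 8 node genes rose, 2 oligodendrocyte precursor genes rose, 1 collagen gene rose and 2 genes of potassium recycling fell, and with a pseudocount of 10 1 hair cell gene fell. The number of T and natural killer cell genes that fell was 1 with either other pseudocount and 0 with the filter of 50. With a pseudocount of 10 the log2 fold change of Ciita was -3.92, as low values are drawn together by construction. The cause of the other shifts was not tested. No paired analysis was possible because P7 replicates 4 to 6 share no replicate number with P3 replicates 1 to 3. At this depth a count of 0 allows an expected count of up to 3 reads.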

Other observations

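Several further gene groups were measured in the same libraries. Of 32 respiratory chain genes, whose proteins make the energy supply of mitochondria, 16 rose and 0 fell (median log2 fold change 0.45, against -0.02 for all genes). Sdhb, a subunit of succinate dehydrogenase, stood at 6670.1, 6409 and 6448 at P7 and 5074, 4359.7 and 4333 at P3 (log2 fold change 0.51 ± 0.09, limma adjusted p = 0.00124), separate between ages. Ldhb, a lactate dehydrogenase chain, rose by 0.66 ± 0.10 on the log2 scale. Of 23 genes of gap junctions, pumps and potassium recycling, 9 rose and 1 fell (the number that fell was 0 without any 1 of P7 replicates 4 and 5 and P3 replicate 1). Fxyd6, a regulator of the sodium pump, stood at 15893, 16325 and 20062 at P7 and 7102, 7421 and 6618 at P3 (log2 fold change 1.30 ± 0.13, limma adjusted p = 2.70e-05). Gjb2 and Gjb6, the connexins of cochlear supporting cells and fibrocytes, rose by 0.85 ± 0.17 and 0.89 ± 0.20, and Kcnj16, an inward rectifier channel, by 1.45 ± 0.24. Kcnj10, its partner subunit, was not called (log2 fold change 0.40 ± 0.18, limma adjusted p = 0.109).

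Of 31 genes of cell death, 12 fell and 3 rose (the number that rose was 1 without P3 replicate 2). Mlkl, the executor of necroptosis, stood at 60.6, 43.6 and 60.1 at P7 and 137, 193 and 199.6 at P3 (log2 fold change -1.66 ± 0.27, limma adjusted p = 0.000757). Gsdmd, the pore protein of pyroptosis, fell (log2 fold change -0.66 ± 0.10), as did the caspase Casp8 (-0.51 ± 0.10). Bik, a death-promoting relative of Bcl2, rose by 1.45 ± 0.24. In BMP and TGF-beta signalling 3 of 28 rose and 6 fell, against 15.4% and 12.8% of all genes tested. Bmp6, a growth factor of bone and cochlea, stood at 3951, 4164 and 3339 at P7 and 1617, 1517 and 1523 at P3 (log2 fold change 1.29 ± 0.14, limma adjusted p = 4.30e-05), while Bmp4 fell (-0.50 ± 0.10), as did Inhba, an activin chain (-0.89 ± 0.22). Among growth factor binding proteins Igfbp6, which binds Igf2, stood at 1498, 1264 and 1104 at P7 and 412, 357 and 500.0 at P3 (log2 fold change 1.61 ± 0.12, limma adjusted p = 3.00e-06). Of 25 endothelial genes 3 rose and 6 fell, against 15.4% and 12.8% of all genes tested. The number that fell was 3 without any 1 of P7 replicate 4 and P3 replicate 3. The barrier transporters Mfsd2a and Slco1a4 rose by 0.96 ± 0.08 and 0.82 ± 0.17, and the endothelial factors Sox18 and Erg had log2 fold changes of -1.0 ± 0.16 and -1.11 ± 0.17.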
